A study of Ovis aries with 8 samples.

Results

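TNKS and TNKS2 encode the tankyrases, and AXIN1, APC, GSK3A, GSK3B and CSNK1A1 encode the core of the complex that marks beta-catenin, the product of CTNNB1, for destruction. These 8 genes were taken by symbol from a table of 28475 genes, and all 8 were present and were expressed above the filter on low values. RNA levels were measured in embryonic stem cells that had been established from inner cell masses of sheep blastocysts, in 4 groups of 2 libraries each. Naive-like cells, converted from primed cells and sampled at passage 12, were grown on MEFs (mouse embryonic fibroblasts, a feeder layer) or feeder-free. Their medium held XAV-939 at 2 µM together with LIF and Activin A (20 ng/mL each), PD0325901 (1 µM), Go6983 (2 µM), CGP77675 (1.2 µM) and ascorbic acid (50 µg/mL). Primed wild-type cells of line B and of line A, sampled at passage 10, were kept in NBFR medium with endo-IWR-1 at 3 µM, Activin A and bFGF at 20 ng/mL each, and 1% BSA. All 4 groups therefore carried a tankyrase inhibitor, and no group without one was analysed here. State, inhibitor, passage and the rest of the medium differed at once between naive-like and primed cells and cannot be told apart. The primed line that gave rise to the naive-like cells is not given in the sources used here.

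Beta-catenin joins cadherins to the cytoskeleton at cell contacts and also carries WNT signals to the nucleus. In the absence of a WNT signal, the scaffolds AXIN and APC hold it while casein kinase 1 alpha and then GSK3 phosphorylate it, and the SCF ubiquitin ligase then tags it for the proteasome. Tankyrases add poly-ADP-ribose to AXIN, which the ubiquitin ligase RNF146 recognises, so that AXIN protein is degraded; inhibitors of tankyrase stabilise AXIN protein. XAV-939 occupies the nicotinamide site of the catalytic domain, and endo-IWR-1 binds a neighbouring pocket of the same domain. Inhibition of this pathway is widely used to restrain differentiation in primed pluripotent cultures of livestock and human cells. All values here are RNA levels, and neither AXIN protein nor tankyrase activity was measured.

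The table holds TPM, a relative abundance corrected for transcript length, so that genes can be set side by side. TPM keep no read counts. The sources used here state the same read depth for every library, but the reads behind each gene are unknown. In each library 13294 to 13664 genes stood at 1 TPM or more, with the fewest in feeder-free replicate 2. Markers of pluripotency were present in every group: of 8, all above 0, 5 rose, 1 fell and 2 did not pass in naive-like against primed cells. Of all genes tested 28.6% rose and 22.1% fell. POU5F1 was at 1532 to 1706 TPM in naive-like and 609.7 to 662 TPM in primed libraries, and DNMT3B, PRDM14 and ZSCAN10 rose by 2.05, 2.66 and 1.91 on the log2 scale. The fall was in LIN28A, at 938 to 1244 TPM in naive-like and 1351 to 1391 TPM in primed libraries. SOX2 overlapped between the states, at means of 313 and 308 TPM. The 11 differentiation markers summed to 1.38 to 3.41 TPM in naive-like and 17.6 to 27.6 TPM in primed libraries. Of these, 3 were tested and all fell (SOX1, PAX6 and FOXA2). They were at most 0.084, 0.481 and 0.239 TPM in naive-like libraries and passed the filter only through primed libraries. The filter thus fixed the direction of these 3 calls, which carry no weight as a test. SOX17 was listed at 0 in all libraries but line A replicate 1. The labels do not say that replicates were separate cultures, and the p-values therefore reflect library-to-library spread that may be technical. Changes are given on the scale of log2(TPM + 1) with limma's standard error, and p-values were adjusted over all 14779 genes tested.

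Between the states, 2 of the 8 genes rose in naive-like cells, AXIN1 and GSK3A, and none fell. Among all genes tested in that comparison 50.7% passed, 28.6% as rises and 22.1% as falls. At an unadjusted p under 0.05 the members passing were the same 2, beside 57.0% of all genes. The other 6 genes did not pass, with estimates between −0.15 and −0.012. The median change of the 8 genes was −0.078, beside 0.050 over all genes tested. AXIN1 and GSK3A were also the 2 genes of the 8 whose naive-like and primed libraries did not overlap, which held for 47.7% of all genes tested.

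**Figure D1:**
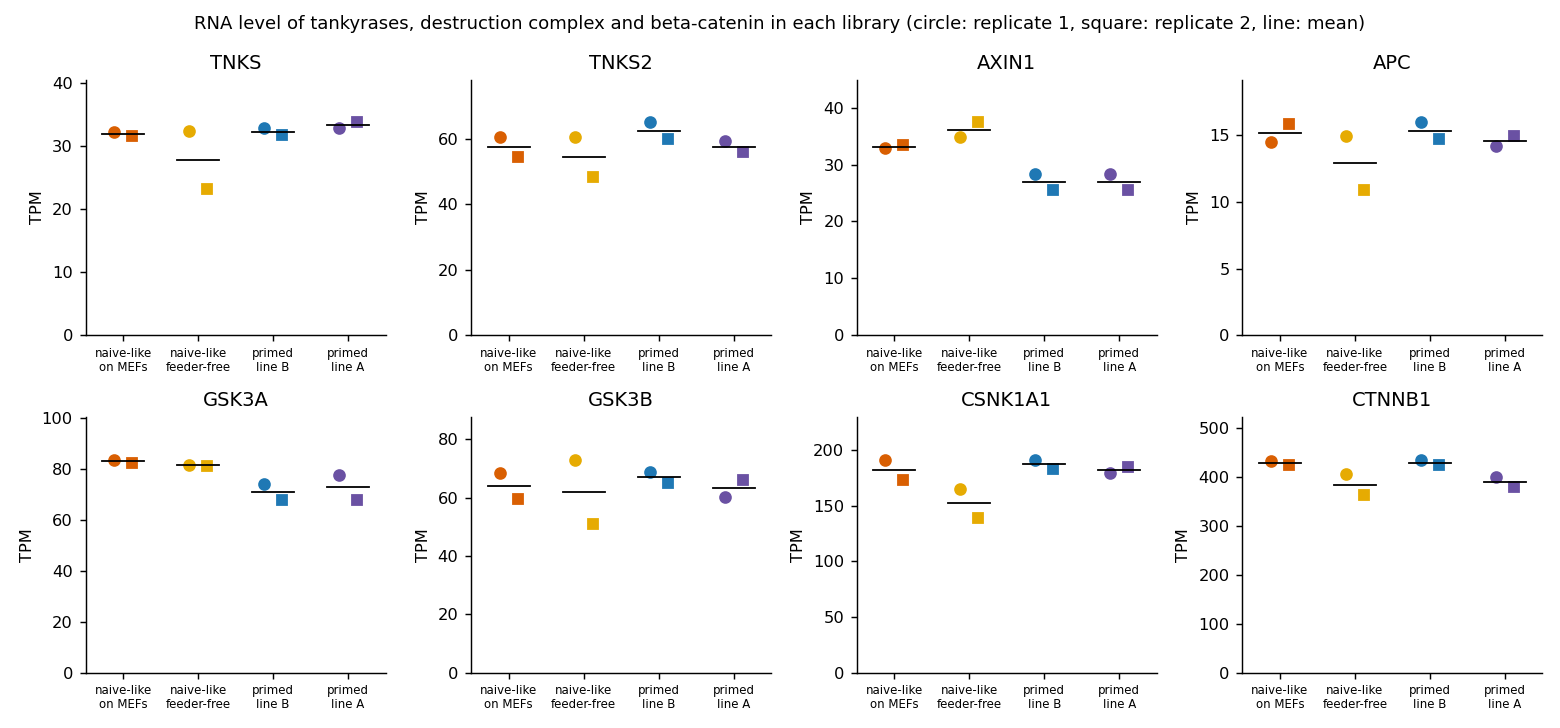
TPM of the 8 genes in each library, with the naive-like groups left of the primed groups; circles are replicate 1, squares replicate 2 and lines the group means. AXIN1 and GSK3A lie higher in all 4 naive-like libraries than in any primed library, and feeder-free replicate 2 is the lowest library for 6 of the 8 genes.

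TNKS2 was the more abundant tankyrase RNA in every library. TNKS was at 32.2 and 31.5 TPM in naive-like cells on MEFs, 32.4 and 23.1 TPM in feeder-free naive-like cells, 32.8 and 31.6 TPM in primed line B and 32.8 and 33.7 TPM in primed line A. Feeder-free replicate 2 lay apart, and the other 7 libraries were within 31.5 and 33.7 TPM. TNKS2 was at 60.7 and 54.5 TPM on MEFs, 60.7 and 48.4 TPM in feeder-free cells, 65.1 and 60.0 TPM in line B and 59.2 and 56.0 TPM in line A, and the states overlapped. The change between states was −0.14 ± 0.104 for TNKS (95% interval −0.38 to 0.093, adjusted p = 0.28 with limma). For TNKS2 it was −0.10 ± 0.0827 (−0.29 to 0.085, adjusted p = 0.33 with limma, and 0.038 to 0.71 in the 20 alternatives). TNKS2 passed as a fall in 1 of these, quantile normalization (−0.20, adjusted p = 0.038 with limma). These intervals reach down to 0.77 (TNKS) and 0.82 (TNKS2) times the primed level and up to 1.07 and 1.06 times it, so equal levels were not shown.

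AXIN1, the scaffold that brings kinases and substrate together, was the gene of the 8 with the greatest change. It was at 32.8 and 33.4 TPM on MEFs, 34.8 and 37.4 TPM in feeder-free cells, 28.3 and 25.5 TPM in line B and 28.4 and 25.6 TPM in line A. Every naive-like library was above every primed one. AXIN1 averaged 34.6 ± 2.05 TPM in naive-like and 26.9 ± 1.61 TPM in primed cells (SD, n = 4 each), a rise of 0.35 ± 0.0667 (1.27-fold, 95% interval 1.148 to 1.41, adjusted p = 0.0021 with limma). Of the genes tested, 56.2% changed by less and 24.3% had a smaller p, so the size of this rise was near the middle of all changes. The call ended when the 2 libraries of each group were averaged (adjusted p = 0.051 with limma, over a range of 0.0013 to 0.051 in the 20 alternatives).

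APC, the large scaffold whose loss activates the pathway in colon cancer, was the least abundant of the 8 RNAs. APC was at 14.5 and 15.9 TPM on MEFs, 15.0 and 10.9 TPM in feeder-free cells, 16.0 and 14.7 TPM in line B and 14.2 and 15.0 TPM in line A. The states overlapped, and the change was −0.097 ± 0.110 (95% interval −0.35 to 0.15, adjusted p = 0.49 with limma).

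Of the paralogous GSK3 kinases, which phosphorylate beta-catenin after priming, GSK3A rose and GSK3B did not pass. GSK3A was at 83.5 and 82.2 TPM on MEFs, 81.3 and 81.2 TPM in feeder-free cells, 74.1 and 67.5 TPM in line B and 77.6 and 67.7 TPM in line A. The 4 naive-like libraries were close together and above all primed libraries. The means were 82.1 ± 1.07 TPM in naive-like and 71.7 ± 4.97 TPM in primed cells (SD, n = 4 each), a rise of 0.19 ± 0.0565 (1.14-fold, 95% interval 1.05 to 1.25, adjusted p = 0.018 with limma). That call (0.0077 to 0.12 over 20 alternatives) was lost with each of 3 other scalings, median-ratio (adjusted p = 0.054), quantile (0.062) and without ribosomal RNA genes (0.057), and also when group entered as a random block (0.082) or libraries were averaged by group (0.12, all from limma). The 18 ribosomal RNA genes, which take part of the fixed TPM total, held 1.43% to 3.48% of it in naive-like and 4.42% to 6.26% in primed libraries. GSK3B was at 68.4 and 59.5 TPM on MEFs, 73.0 and 50.8 TPM in feeder-free cells, 68.9 and 65.1 TPM in line B and 60.3 and 66.0 TPM in line A. Its highest and lowest libraries were the 2 feeder-free ones, and the change between states was −0.059 ± 0.106 (95% interval −0.30 to 0.18, adjusted p = 0.67 with limma).

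CSNK1A1 encodes casein kinase 1 alpha, which places the priming phosphate on beta-catenin. Its RNA stood at 191 and 173 TPM on MEFs, 165 and 139 TPM in feeder-free cells, 191 and 183 TPM in line B and 179.5 and 185 TPM in line A. Both feeder-free libraries were below the other 6, while those on MEFs overlapped the primed range and reached below it. Over the states the change was −0.15 ± 0.0859 (95% interval −0.35 to 0.040, adjusted p = 0.16 with limma, and 0.044 to 0.36 in the 20 alternatives). It passed as a fall with median-ratio scaling (−0.20, adjusted p = 0.044) and without MEF replicate 1 (−0.22, adjusted p = 0.045, both from limma).

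CTNNB1 itself was the most abundant of the 8 and had the change nearest to 0. Its level was 433 and 424 TPM on MEFs, 405 and 364 TPM in feeder-free cells, 435 and 423 TPM in line B and 399.6 and 380.1 TPM in line A. The means of 406 ± 30.7 TPM in naive-like and 409 ± 24.5 TPM in primed cells (SD, n = 4 each) differed by less than either spread. The change of −0.012 ± 0.0663 had a 95% interval of −0.16 to 0.14 (adjusted p = 0.89 with limma), or 0.89 to 1.10 times the primed level. This interval treats the libraries of a state as independent. Within the states the estimates were larger, 0.14 for line B against line A and 0.16 for MEFs against feeder-free, and neither passed. Only 2.69% of genes tested had a smaller change.

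By mean level over the 8 libraries, CTNNB1 (408 TPM) stood first, followed by CSNK1A1 (176 TPM), GSK3A (76.9 TPM), GSK3B (64.0 TPM), TNKS2 (58.1 TPM), TNKS (31.3 TPM), AXIN1 (30.8 TPM) and APC (14.5 TPM). CTNNB1 lay above 97.7% of the genes tested and APC above 49.6%. GSK3B and TNKS2 overlapped in both states, and GSK3A and GSK3B overlapped in primed cells. TNKS and AXIN1 changed places: AXIN1 was at 32.8 to 37.4 TPM and TNKS at 23.1 to 32.4 TPM in naive-like libraries, while in primed libraries AXIN1 was at 25.5 to 28.4 TPM and TNKS at 31.6 to 33.7 TPM. All 8 genes varied little, with a distance from lowest to highest library of 0.26 (CTNNB1) to 0.53 (AXIN1) on the log2 scale, against a median of 0.65 over all genes tested.

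**Figure D2:**
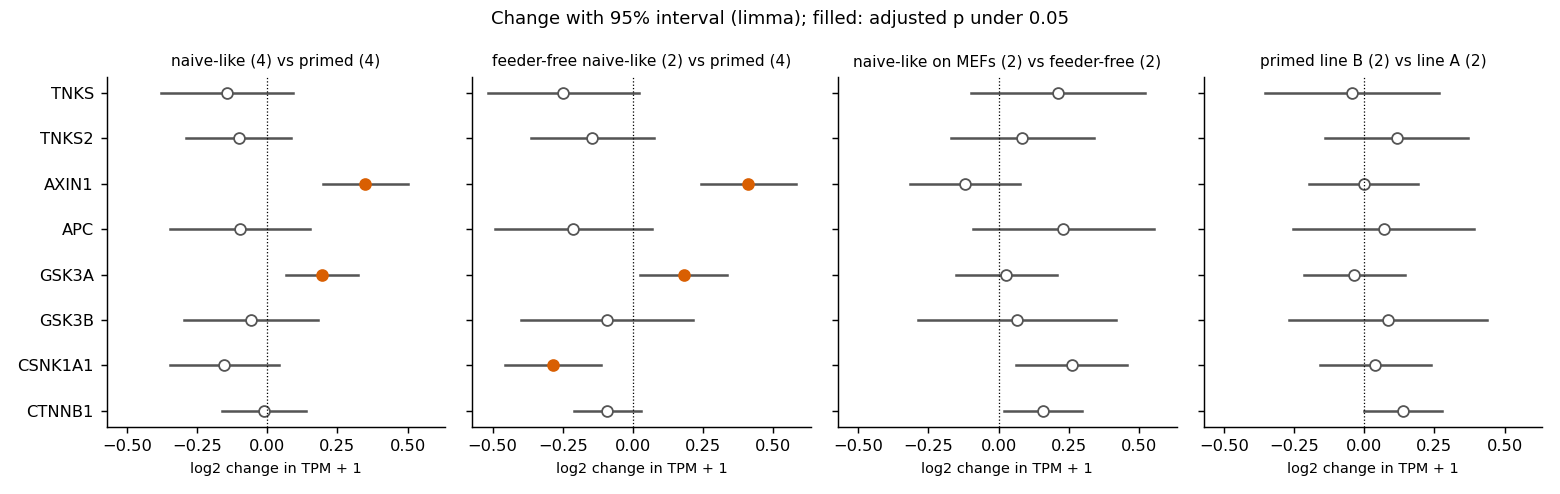
Change of each of the 8 genes on the log2(TPM + 1) scale with its 95% interval in the 4 comparisons; filled points passed an adjusted p of 0.05. AXIN1 and GSK3A passed in the 2 comparisons between states, CSNK1A1 in the feeder-free comparison, and no gene passed between MEFs and feeder-free or between lines.

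The feeder-free naive-like libraries were set against the 4 primed libraries, so that no feeder cells were in either arm. AXIN1 averaged 36.1 ± 1.86 TPM in feeder-free naive-like cells (SD, n = 2) and 26.9 ± 1.61 TPM in primed cells (n = 4), a rise of 0.41 ± 0.0733 (adjusted p = 0.0019 with limma). This call held in each of the 17 alternatives, with adjusted p-values of 0.0014 to 0.018. CSNK1A1 fell to 152 ± 18.4 TPM in feeder-free naive-like cells, against 185 ± 5.01 TPM in primed cells, a change of −0.28 ± 0.0742 (adjusted p = 0.012 with limma). GSK3A rose by 0.18 ± 0.0672 at the edge of the threshold (adjusted p = 0.04997 with limma, and 0.017 to 0.15 in the 17 alternatives, of which 5 kept the call). In all 3 of the 8 genes passed, 2 as rises and 1 as a fall, beside 56.4% of all genes tested (30.8% and 25.6% by direction). The same number had an unadjusted p under 0.05, beside 61.2% of all genes, and libraries that did not overlap, beside 59.8%. The other 5 had estimates of −0.25 (TNKS, 95% interval −0.52 to 0.020) to −0.091 (CTNNB1, −0.21 to 0.028). Of the 17 alternatives, CTNNB1 passed as a fall in 4, TNKS in 3 and TNKS2 in 2. These include the fit with feeder-free replicate 2 as the sole feeder-free library. With all libraries kept, 4 of the 8 genes passed with median-ratio scaling and 5 with quantile normalization, beside 57.0% and 56.8% of all genes. This comparison shares its primed libraries with that of all naive-like cells.

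Feeder-free replicate 2 weighed on these values. It was the lowest of the 8 libraries for TNKS, TNKS2, APC, GSK3B, CSNK1A1 and CTNNB1, and it was the highest for AXIN1. Over all genes tested it was the lowest library for 20.9%, the largest share of any library. Against feeder-free replicate 1, it was lower by 0.51 for GSK3B, 0.47 for TNKS and 0.43 for APC, where the median of all genes tested was lower by 0.059. Only 3.25%, 4.06% and 5.33% of genes had a more negative difference than these 3. Without this library 1 of the 8 genes passed in the feeder-free comparison, beside 47.7% of all genes tested in that fit, and it was AXIN1, with CSNK1A1 at −0.16 (adjusted p = 0.093 with limma). With it as the sole feeder-free library 7 passed, all but GSK3A, beside 48.9% of all genes, and TNKS was then at −0.48 (adjusted p = 0.0016 with limma), against −0.014 without it (adjusted p = 0.89 with limma). In these fits the lone library was assumed to vary like the other groups. What set this library apart was not tested.

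**Figure D3:**
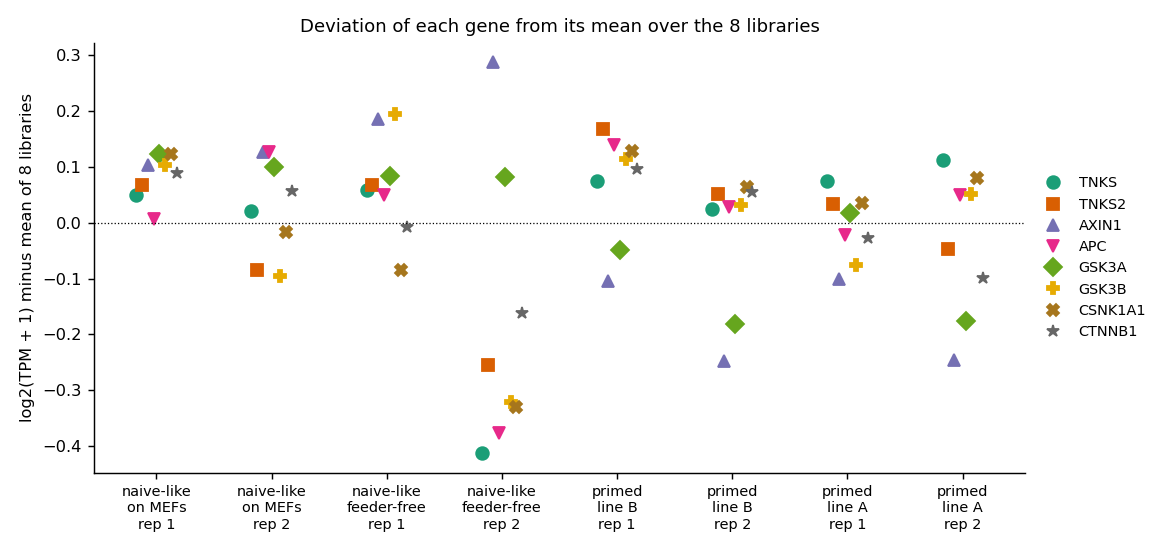
Deviation of each of the 8 genes from its own mean over the 8 libraries, in log2(TPM + 1), by library. In feeder-free replicate 2 the genes spread from −0.41 (TNKS) to 0.29 (AXIN1), and in the other libraries all points lie between −0.25 and 0.20.

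Naive-like cells on MEFs were compared with feeder-free naive-like cells, which shared medium and tankyrase inhibitor. No gene of the 8 passed (limma), where 5.16% of all genes tested did (2.89% as rises and 2.27% as falls), and 2 had an unadjusted p under 0.05, beside 20.8% of all genes. These were CSNK1A1, at 182 ± 12.6 TPM on MEFs and 152 ± 18.4 TPM feeder-free (SD, n = 2 each; 0.26 ± 0.0856, adjusted p = 0.14 with limma), and CTNNB1, at 428 ± 6.79 TPM on MEFs and 384 ± 28.9 TPM feeder-free (0.16 ± 0.0597, adjusted p = 0.18 with limma). AXIN1 was at 33.1 ± 0.370 TPM on MEFs and 36.1 ± 1.86 TPM feeder-free, a change of −0.12 ± 0.0846 with a 95% interval of −0.32 to 0.074. The libraries did not overlap for 4 of the 8 genes, as for 52.6% of all genes tested. With 1 library left out at a time, TNKS ranged from −0.0226 to 0.45 and CSNK1A1 from 0.14 to 0.38. Both were highest without feeder-free replicate 1, which leaves 1 feeder-free library.

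RNA of the feeder cells may have entered the libraries on MEFs, and how it was handled is not given in the sources used here. Of 15 fibroblast markers 11 were tested, and 5 rose and 2 fell on MEFs, beside 2.89% and 2.27% of all genes tested. Between the states 4 of the 11 fell, 0 rose and 7 did not pass, where 22.1% of all genes tested fell and 28.6% rose. The falls were in FBLN1, PDGFRB, LUM and DCN. LUM lost its call with libraries averaged by group (adjusted p = 0.064 with limma, in a range of 6.7e-05 to 0.064). DCN was at 0.24 to 1.04 TPM in naive-like libraries and passed the filter through primed libraries. In feeder-free naive-like against primed cells 8 of the 11 fell, 1 rose and 2 did not pass. Of all genes tested 25.6% fell and 30.8% rose in that comparison. COL1A2, COL3A1, PDGFRB and TWIST1 were at most 0.22, 0.12, 0.96 and 0.28 TPM in feeder-free libraries. They passed the filter only through libraries of other groups. Counts of these markers that involve feeder-free cells therefore carry no weight as a test. The summed level of the 15 was 355 to 358 TPM on MEFs, 159.5 to 173 TPM feeder-free and 309.7 to 368 TPM in primed libraries. COL1A2, a collagen of fibroblasts, was at 39.0 and 37.0 TPM on MEFs and at 0.047 and 0.219 TPM feeder-free. Of the 11 tested, 7 were higher on MEFs and 4 were lower (COL5A1, LUM, THY1 and DCN). COL5A1 averaged 28.8 TPM on MEFs and 38.7 TPM feeder-free, and LUM 12.1 and 18.8 TPM. FAP was listed at 0 in all libraries but MEF replicate 2, and POSTN was listed at 0 in the feeder-free libraries. In bulk libraries a change in the share of cells and a change in RNA per cell cannot be told apart. The part of feeder RNA in the values of the 8 genes was not tested.

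Primed line B was compared with primed line A, which received the same tankyrase inhibitor. None of the 8 genes passed (limma), where 7.36% of all genes tested did (4.18% as rises and 3.17% as falls), and 1 had an unadjusted p under 0.05, beside 24.3% of all genes. That gene was CTNNB1, at 429 ± 8.41 TPM in line B and 389.9 ± 13.8 TPM in line A (SD, n = 2 each), a change of 0.14 ± 0.0597 (adjusted p = 0.20 with limma). AXIN1 differed between the lines by −0.0026 ± 0.0846 (95% interval −0.20 to 0.19). Estimates of the others lay between −0.044 (TNKS) and 0.12 (TNKS2). The libraries of the lines did not overlap for TNKS2 and CTNNB1, both higher in line B, and for 54.8% of all genes tested. Among all genes tested, 618 rose and 469 fell in line B, and 405 and 607 with median-ratio scaling.

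AXIN2, the second AXIN paralog, is itself switched on by beta-catenin and is a standard readout of the pathway. It was at 2.48 and 2.44 TPM on MEFs, 1.04 and 1.56 TPM in feeder-free cells, 5.59 and 5.15 TPM in line B and 5.83 and 5.68 TPM in line A. Every naive-like library was below every primed one, opposite in direction to AXIN1. The fall was −1.22 ± 0.172 (adjusted p = 0.00035 with limma), and −1.59 and −0.62 with pseudocounts of 0.1 and 5, since the scale understates changes of genes at low TPM. On MEFs it averaged more than feeder-free, by 0.60 ± 0.141, which did not pass (adjusted p = 0.053 with limma, and 0.045 to 0.23 in the alternatives, of which 3 passed).

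Shares of TPM within a library do not move when the library is rescaled. AXIN2 made up 7.03% and 6.81% of the summed AXIN1 and AXIN2 TPM on MEFs and 2.89% and 4.002% in feeder-free cells. In primed cells its share was 16.5% and 16.8% in line B and 17.04% and 18.2% in line A, so the states did not overlap. The sum itself was 36.5 ± 1.68 TPM in naive-like and 32.5 ± 1.80 TPM in primed cells (SD, n = 4 each). The ratio of CTNNB1 to AXIN1 TPM was 13.2 and 12.7 on MEFs, 11.6 and 9.72 in feeder-free cells, 15.4 and 16.6 in line B and 14.1 and 14.9 in line A. All naive-like ratios were below all primed ones.

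The mixture of paralogs among tankyrases and GSK3 kinases overlapped between the states. TNKS took 34.6 ± 1.77% of the tankyrase TPM in naive-like and 35.3 ± 1.74% in primed cells (SD, n = 4 each). GSK3A took 56.8 ± 3.83% of the GSK3 TPM in naive-like and 52.4 ± 2.62% in primed cells, with ranges of 52.7% to 61.5% and 50.7% to 56.3%. The summed TPM of both tankyrases was 85.9 ± 10.1 in naive-like and 92.8 ± 3.54 in primed cells. These shares are given as descriptions with no test.

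**Figure D4:**
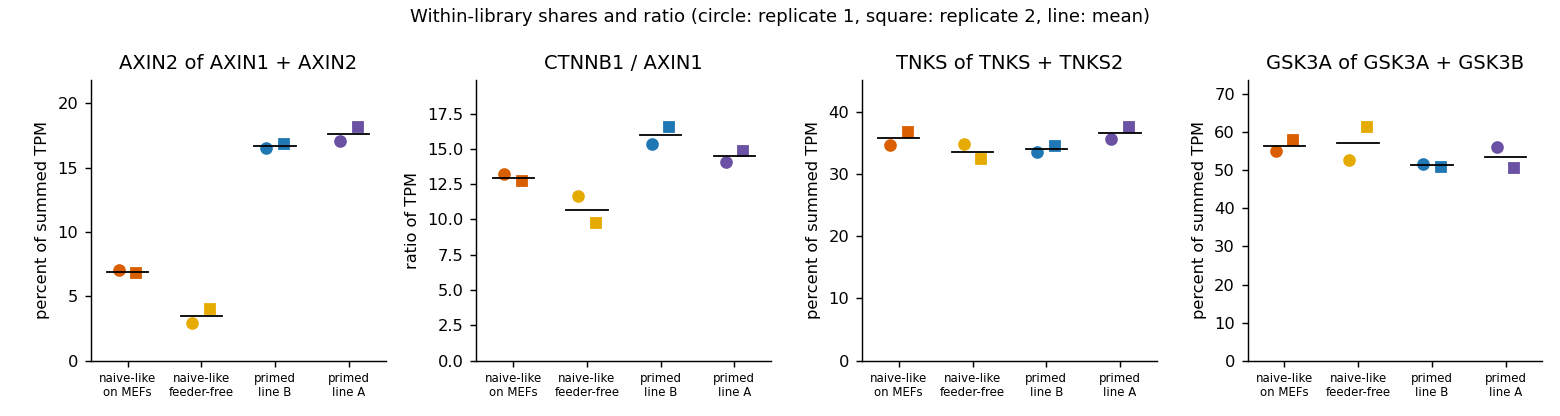
Share of AXIN2 in AXIN1 plus AXIN2, ratio of CTNNB1 to AXIN1, share of TNKS in the tankyrases and share of GSK3A in the GSK3 kinases, per library from TPM; naive-like groups stand left of primed groups. The AXIN2 share and the CTNNB1 to AXIN1 ratio separate the states, and the other shares overlap.

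Among 17 further subunits of the complex, 5 rose, 4 fell and 8 did not pass between the states, with a median change of 0.029. Of all genes tested 28.6% rose and 22.1% fell, with a median change of 0.050. The B56 subunits of the phosphatase PP2A, which can oppose the kinases, included PPP2R5A, a fall of −1.08 ± 0.102 to 10.3 ± 1.31 TPM in naive-like against 22.9 ± 2.24 TPM in primed cells (SD, n = 4 each). PPP2R5C also fell (−0.50 ± 0.0561). The casein kinase 1 relatives CSNK1E and CSNK1G2 rose by 0.46 ± 0.060 and 0.76 ± 0.101 (adjusted p-values of these 4 genes 3.1e-05 to 0.00025 with limma). Of 5 genes of the SCF ubiquitin ligase, the cullin CUL1 rose by 0.37 ± 0.065 and RBX1, its RING subunit, fell by 0.13 ± 0.0491. The call of RBX1 (adjusted p = 0.0499 with limma) held in 5 of 20 alternatives. FBXW11, a beta-TrCP protein that recognises phosphorylated beta-catenin, and the adaptor SKP1 did not pass (−0.14 ± 0.0681 and 0.15 ± 0.109), although FBXW11 passed as a fall in 4 of 20 alternatives.

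Among 13 partners of tankyrase 2 rose, 4 fell and 7 did not pass, where 28.6% of all genes tested rose and 22.1% fell. RNF146 was at 33.5 and 34.7 TPM on MEFs, 30.8 and 32.1 TPM in feeder-free cells, 52.1 and 50.7 TPM in line B and 36.9 and 42.6 TPM in line A. The naive-like libraries were below all primed ones, and the fall was −0.45 ± 0.106 (adjusted p = 0.0063 with limma), lost only with libraries averaged by group (0.077 with limma, in a range of 0.00024 to 0.077). RNF146 also differed between the primed lines (0.36 ± 0.0805 higher in line B, adjusted p = 0.034 with limma), a call kept in 8 of 17 alternatives. The angiomotin AMOT, which tankyrase marks for degradation, fell by 0.78 ± 0.0917. The adaptor SH3BP2 and the telomere protein TERF1, both tankyrase substrates, rose by 0.56 ± 0.069 and 0.33 ± 0.0895 (adjusted p = 0.00015 and 0.013 with limma). The call of TERF1 was lost with libraries averaged by group (0.11 with limma, in a range of 0.00063 to 0.11).

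On the receptor side, which inactivates the complex when WNT binds, 2 of 8 genes rose, 2 fell and 4 did not pass. Of all genes tested 28.6% rose and 22.1% fell. FRAT1 and FRAT2, which bind GSK3 and keep it from AXIN, fell by 0.51 ± 0.10 and 0.36 ± 0.0836, and the change of FRAT1 was −0.30 with a pseudocount of 5. The Dishevelled genes DVL3 and DVL1 rose by 0.29 ± 0.0773 and 0.30 ± 0.10, and the call of DVL1 (adjusted p = 0.033 with limma) held in 10 of 20 alternatives. The calls of FRAT2 and DVL3 were lost in 1 of 20, with libraries averaged by group (adjusted p = 0.085 and 0.097 with limma, in ranges of 0.0014 to 0.085 and 0.0019 to 0.097).

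Beta-catenin is shared with cadherins at the junctions. All 8 adherens junction genes passed between the states, 4 as rises and 4 as falls, beside 28.6% and 22.1% of all genes tested. CDH1, the epithelial cadherin, was at 151 ± 31.4 TPM in naive-like and 16.9 ± 1.45 TPM in primed cells (SD, n = 4 each; 3.07 ± 0.137), and CDH3, the placental cadherin, rose by 2.79 ± 0.0916. CDH2, the neural cadherin, was at 15.4 ± 4.06 TPM in naive-like and 172 ± 11.4 TPM in primed cells (−3.44 ± 0.159), and CTNND1, which binds cadherin tails, rose by 0.80 ± 0.0686. Adjusted p-values of these 4 genes were 5.9e-08 to 1.7e-05 with limma.

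Nuclear partners rose in 7 and fell in 3 of 12 tested, with a median change of 0.29. Among all genes tested 28.6% rose and 22.1% fell, with a median change of 0.050. The factors TCF7L2 and TCF7L1, which carry beta-catenin to DNA or repress without it, rose by 1.20 ± 0.0598 and 1.18 ± 0.0598. Of the Groucho-type corepressors, TLE3 rose by 0.81 ± 0.0622 and TLE4 fell by 0.76 ± 0.111. Of 14 genes known as WNT targets 9 were tested, of which 6 fell, 1 rose and 2 did not pass, with a median of −0.41. LEF1, counted as a fall in both lists, was at most 0.49 TPM in naive-like libraries. It passed the filter only through primed libraries (0.89 to 1.96 TPM), so its fall carries no weight as a test. SP5 was at 1.59 ± 0.945 TPM in naive-like and 10.6 ± 1.75 TPM in primed cells (SD, n = 4 each), a fall of −2.22 ± 0.237 (−2.81 and −1.25 with pseudocounts of 0.1 and 5). BAMBI was at 4.43 ± 1.48 TPM in naive-like and 15.4 ± 2.64 TPM in primed cells, a fall of −1.62 ± 0.189. TCF7 rose by 0.68 ± 0.119. AXIN2 is counted in this list and among the further subunits, and LEF1 and TCF7 are counted here and among the nuclear partners.

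**Figure D5:**
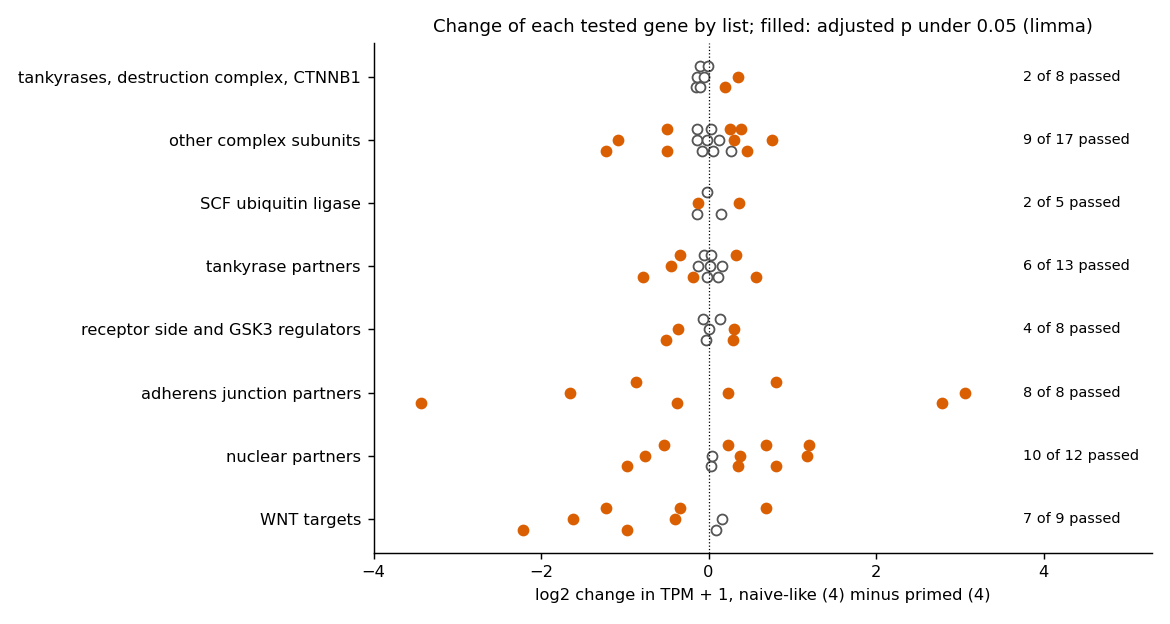
Change between naive-like and primed cells of each tested gene on the log2(TPM + 1) scale, by list; filled points passed an adjusted p of 0.05 with limma. The 8 genes of the tankyrases, complex and beta-catenin lie within 0.4 of 0 and 2 passed, while all 8 adherens junction genes passed with changes from −3.44 to 3.07. Of all genes tested 50.7% passed.

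The genes most like 4 of the members were sought by Pearson's r of log2(TPM + 1) over the 8 libraries, among 10528 other genes with a mean of at least 5 TPM. AXIN1 was followed most closely by ATG4B and NF2 (r = 0.997 each) and COL26A1 (r = 0.994), CTNNB1 by IARS1 and BRCA2 (0.980 each) and TLK2 (0.971), and TNKS2 by SOCS7 (0.968) and CLINT1 (0.959). For TNKS the closest were UTP14C (0.988), LOC101123619 (0.971) and CSGALNACT2 (0.965), each lowest in feeder-free replicate 2, where UTP14C was listed at 0. All libraries of a state share medium and passage, so these values describe the libraries and carry no test. Among the 8 genes, r between pairs ran from −0.71 (AXIN1 and CSNK1A1) to 0.92 (TNKS and APC). It was 0.90 for AXIN1 and GSK3A and 0.89 for TNKS and CSNK1A1. TNKS and APC were both farthest from their means in feeder-free replicate 2, by −0.41 and −0.38, so that library weighs on their value.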

How the data were processed

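RNA-seq was done on polyadenylated RNA of 8 libraries in 4 groups of 2. Per the submitters' processing notes Salmon was used, and the authors deposited gene-level TPM in a table of all libraries. The Salmon version, index and genome build are not given in the sources used here, and no genome positions are printed. No protein or promoter sequences were used here. TPM are relative: a change in abundant RNA moves the values of all other genes. The number of reads behind each value is unknown and gives no interval.

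TPM were transformed to log2(TPM + 1). Genes at 1 TPM or more in at least 2 libraries were tested (14779) with limma 3.58.1 in R 4.3.3, with a variance trend. P-values were two-sided and adjusted by Benjamini-Hochberg over all genes tested, with a threshold of 0.05. State was tested in a 2-group fit and the other comparisons as contrasts in a fit of 4 groups. Alternatives were other pseudocounts (0.1 and 5), filters and scalings, no variance trend, a replicate block, each library left out, and for state the group as a random block, averaged, or in the fit of 4 groups. The procedure was tested on simulated data in which all libraries varied independently. For state, no difference between groups of the same state was simulated. The simulation therefore does not check the state fit for libraries that share a group. Intervals of changes are unadjusted 95% intervals.

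The members, lists and tests were chosen with earlier results of these data known. COL1A2, COL3A1, COL5A1, THY1, TWIST1, FAP, POSTN, SOX17, LEF1, LIN28A and SOX2 were named after their values were seen. The other named genes are all 8 members, up to 4 per list by the smallest adjusted p for state, AXIN2 and RNF146. The rule also names the 3 genes most like TNKS, TNKS2, AXIN1 and CTNNB1. For TNKS2, a further gene that this rule names is not reported here.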

Additional observations from a re-analysis of the deposited data

Results flagged for a closer look

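In groups of 4 libraries of a state, 102 sets of values (named genes and shares in each state) were screened for a library far from the other 3, and 5 stood apart. Chance flags about 1 in 20 such sets. TNKS was at 23.1 TPM in feeder-free replicate 2, against 31.5 to 32.4 TPM in the other naive-like libraries. FBXW11 was at 41.5 TPM in line A replicate 2, against 46.6 to 47.1 TPM in the other primed libraries. CSNK1G2 was at 33.8 TPM in line A replicate 2, against 35.3 to 35.4 TPM. TCF7L1 was at 127 TPM in feeder-free replicate 1, against 121 to 122 TPM. PAX6, a marker of neuroectoderm, was at 0.481 TPM in MEF replicate 1, against 0 to 0.058 TPM in the other naive-like libraries.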

How the results depend on the processing

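Between the states 7493 genes (50.7%) and 2 of the 8 members passed. After averaging libraries by group, 4023 genes (27.2%) and 0 members passed (limma). With the group as a random block, or after rescaling without ribosomal RNA genes, 1 member passed, AXIN1, beside 39.6% and 50.0% of all genes. Feeder-free against primed, quantile normalization gave 5 members, beside 56.8% of all genes, and leaving out a library gave 1 to 7, beside 47.7% to 53.9%. On MEFs against feeder-free, 762 genes passed, 497 with no filter and 160 to 644 without a library (fewest without MEF replicate 2, and 163 and 319 without MEF replicate 1 and feeder-free replicate 2), with 0 to 2 members. Between lines 1087 genes passed, and 363 to 1223 without a library, of which 363 to 463 came from leaving out any primed library. The replicate number as a replicate block left 7237 genes (49.0%) and 2 members for state. Differences of replicate 2 from replicate 1 correlated across genes at −0.075 to 0.097 between groups. Within every group replicate 2 was below replicate 1 for most genes tested, 55.7% (MEFs) to 63.7% (line B). What the replicate number stands for was not tested. Signs of members that had not passed turned when a library was left out: APC (−0.16 to 0.0124), GSK3B (−0.13 to 0.0375) and CTNNB1 (−0.047 to 0.0398) for state, TNKS2 (−0.30 to 0.0167), APC (−0.43 to 0.000845) and GSK3B (−0.35 to 0.165) feeder-free against primed, TNKS (−0.0226 to 0.45), TNKS2 (−0.0765 to 0.25) and GSK3B (−0.19 to 0.32) on MEFs, and AXIN1 (−0.075 to 0.070) and GSK3A (−0.13 to 0.0617) between lines. CSNK1A1 turned between lines with median-ratio (−0.0255) and quantile scaling (−0.0351), and the difference in the TNKS share was −1.37 to 0.0732 percentage points. The causes were not tested. With a mean of at least 5 TPM, AXIN2, DCN, PAX6, SOX1, FRAT1 and FOXA2 gave no value. With 2 libraries a group and small changes, a fall or rise of about the size of the intervals given could go undetected.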
